A study of Mus musculus with 18 samples.

Results

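The genes described here encode the enzymes that make cholesterol and fatty acids, together with the proteins that sense sterols and switch the enzymes on. They were followed in mouse macrophages treated with dexamethasone, a synthetic glucocorticoid. The list holds 33 genes chosen by name: 18 enzymes of the sterol branch, 9 of the fatty acid branch, and 6 sensors, transcription factors and a carrier. A gene was represented by its brightest probe set, the group of probes on the array that reports it, among those annotated with 1 gene symbol. That gave 29 members of 13190 genes tested, all 29 past the filter on dim genes: 16 of the sterol branch, 8 of the fatty acid branch and 5 regulators. Acat2, Pmvk, Srebf1 and Scd2 had no such probe set in the annotation used and were not analysed here.

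Bone marrow from 3 male C57BL/6 mice aged 10 weeks was grown for 1 week in serum with recombinant human CSF1, the growth factor that turns marrow cells into macrophages, and replated in the same factors. Cells were taken at baseline, without dexamethasone, or after 1, 2, 4, 10 or 24 h of 100 nM dexamethasone, with 3 arrays in each of the 6 groups and 18 arrays in all. The design text speaks of 3 biological replicates of the time course, which may mean that a replicate number is 1 mouse followed over all times, but no label says which array came from which mouse. The tests here therefore do not pair arrays by number, although 18 of 18 arrays correlated best with arrays of their own number. An offset shared by the arrays of a number thus counts as spread in these tests. A fit that adds the replicate number to the model is given in the closing section. At 10 h it called 22 members lower, against 8.41% of all genes. A member said below not to pass the test did not pass it in the fit without the number, which does not show that it was unchanged. No untreated array of a later time is among the 18, so dexamethasone and time in culture cannot be told apart in a comparison with baseline.

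Cholesterol is built from acetyl-CoA through mevalonate to farnesyl diphosphate, 2 of which join to squalene, and squalene is closed into lanosterol and trimmed to cholesterol. When membrane sterol is low, the carrier Scap moves the transcription factor SREBP-2, product of Srebf2, to the Golgi for cleavage, and the freed part switches on nearly all of these genes. When sterol is high, Insig proteins hold Scap back, and Insig1 is itself a target of the pathway. Fatty acid synthesis starts from acetyl-CoA made by Acly, passes through Acaca and Fasn, and ends with elongation and desaturation. Its genes are switched on mainly by SREBP-1c, from Srebf1, and by the liver X receptors.

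Correlations between arrays of the same group lay between 0.995 and 0.997. The treatment check genes rose: at 10 h, Tsc22d3 by 2.45 ± 0.06 log2 units (limma standard error, n = 3 arrays a group), Fkbp5 by 3.80 ± 0.07 and Per1 by 2.17 ± 0.10. All 8 macrophage markers read between 8.75 and 13.1 log2 on every array. Of 6 adipocyte markers the 4 named ones, Adipoq and Lep among them, read at most 4.09, and the 6 fibroblast markers at most 3.58, where the 40th percentile of an array lay at 3.45 to 3.50. The summed intensity of 5 neutrophil markers ran from 169 to 258 at baseline, from 133 to 189 at 10 h and from 109 to 134 at 24 h. For Gapdh, the control probe sets at the 3' end exceeded those at the 5' end by a mean of 0.06 log2 on baseline arrays and of 0.15 to 0.20 after treatment, a measure of how intact the RNA was. The part of these shifts in the changes from baseline was not tested.

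The arrays numbered replicate 2 stood apart for these genes. In 24 of 29 members replicate 2 was the lowest of the 3 arrays in all 6 groups, whereas replicate 1 and replicate 3 were so in 0 members. Over all genes tested replicate 2 was lowest in all 6 groups for 1.09% and replicate 3 for 1.89%. The 5 members outside that pattern were Mvk, Ebp, Insig2, Scap and Acaca. Replicate 2 lay below the mean of replicates 1 and 3 by a median of -0.48 log2 over the 16 sterol genes and -0.35 over the 8 fatty acid genes, against 0.00 over all genes. Scd1, which puts the first double bond into fatty acids, had the widest gap at -0.95, and Fads2 and Lss followed at -0.73 each. This Gapdh measure averaged 0.13, 0.16 and 0.19 on the arrays of replicates 1, 2 and 3. The same measure for Actb averaged 0.41, 0.40 and 0.44, lowest in replicate 2. The part of either in the gap of replicate 2 was not tested. The spread between replicates was wide for these genes: the median member had an SD of 0.30 log2 within a group, against 0.14 for the median gene. Counts of members past the test are therefore given with all arrays and again without the 6 arrays of replicate 2 (this alternative was chosen after seeing the data).

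**Figure D1:**
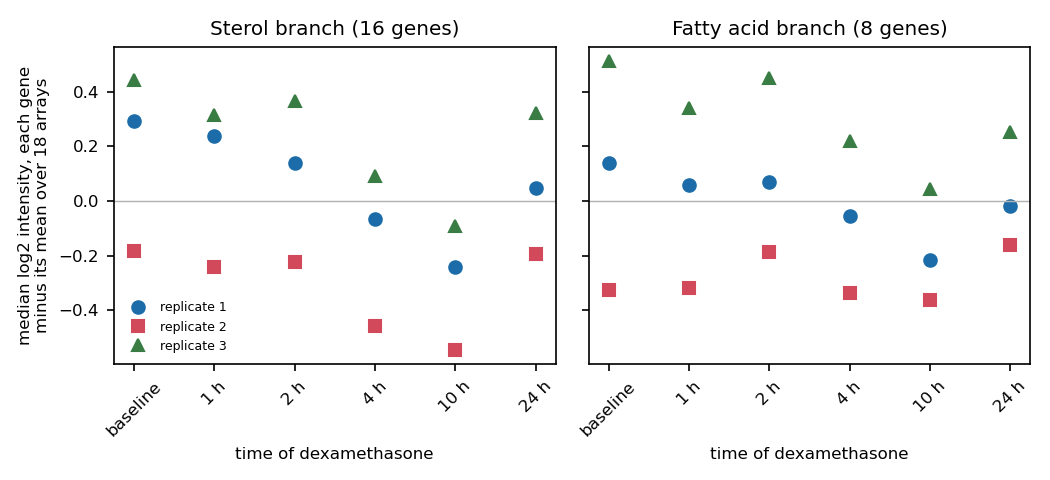
Median log2 intensity of the 16 sterol genes (left) and the 8 fatty acid genes (right) on each of the 18 arrays, each gene first set relative to its own mean over all arrays; the x axis gives the group and the symbol the replicate number. Replicate 2 is the lowest point in every group of both panels, and the sterol medians are lowest at 10 h, at -0.24, -0.54 and -0.09 for replicates 1, 2 and 3.

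Enzymes of the mevalonate steps were represented by 5 genes. Fdps, which makes farnesyl diphosphate, read 10.75, 10.18 and 11.005 log2 on the baseline arrays of replicates 1, 2 and 3. It read 10.70, 10.25 and 10.81 at 1 h, 10.65, 10.26 and 10.87 at 2 h, and 10.43, 10.02 and 10.69 at 4 h. It then read 10.14, 9.77 and 10.23 at 10 h, and 10.49, 10.21 and 10.77 at 24 h. The 10 h group had the lowest mean, although 1 of its arrays lay above the baseline array of replicate 2. From baseline to 10 h Fdps fell by 0.60 ± 0.19 on the log2 scale (limma adjusted p 0.035). In these bulk samples fewer cells expressing a gene and less RNA per cell cannot be told apart.

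No other mevalonate gene passed the test at any time in the fit without the replicate number. When the number was in the model, Hmgcs1, Mvd and Idi1 were also called lower at 4 h and at 10 h. The shares of all genes called lower were 4.83% and 8.41%. Hmgcs1, which makes HMG-CoA ahead of the rate-limiting step, averaged 4.95 ± 0.34 log2 at baseline (SD, n = 3) and 4.16 ± 0.49 at 4 h. Its change at 4 h was -0.79 ± 0.26 (adjusted p 0.0699), the lowest value of any member at that time. This probe set was dim, and its array of 4 h replicate 2 read 3.64. Mvd, which decarboxylates mevalonate diphosphate to isopentenyl diphosphate, averaged 7.77 ± 0.40 at baseline, 7.14 ± 0.28 at 10 h and 7.80 ± 0.35 at 24 h. Its change at 10 h was -0.63 ± 0.23 (adjusted p 0.0656). Idi1, the isopentenyl diphosphate isomerase, stood at -0.47 ± 0.19 at 10 h (adjusted p 0.0969) and at -0.04 ± 0.19 at 24 h. Mvk, mevalonate kinase, stayed between -0.14 and -0.07 from 1 h to 24 h.

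Among the 11 genes from squalene synthesis to cholesterol, Hsd17b7 changed most. Its product is the 3-ketosteroid reductase that acts while the methyl groups of lanosterol are removed. Baseline arrays read 8.85, 8.397 and 8.74 log2 in the order of replicates 1, 2 and 3. At 1 h they read 8.78, 7.98 and 8.58, at 2 h 8.66, 8.03 and 8.48, and at 4 h 8.37, 7.76 and 7.99. They read 8.08, 7.54 and 7.79 at 10 h, the group of lowest mean, and 8.39, 8.16 and 8.43 at 24 h. Every 4 h array and every 10 h array lay below every baseline array, as was so for 10.1% and 11.6% of all genes. Hsd17b7 fell by 0.62 ± 0.18 on the log2 scale at 4 h (limma adjusted p 0.034) and fell by 0.86 ± 0.18 at 10 h (adjusted p 0.00158), a 1.81-fold lower level. At 24 h the change was -0.33 ± 0.18 (adjusted p 0.266). Another probe set, which averaged 7.04, gave -0.47 at 4 h and -0.56 at 10 h. The dimmest read 3.42 on average, close to the 40th percentile of the arrays, and gave -0.02 and -0.37.

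Sc5d, the lathosterol oxidase near the end of the pathway, read 10.24, 9.69 and 10.49 log2 at baseline. Its arrays read 10.20, 9.62 and 10.29 at 1 h, and 10.29, 9.74 and 10.35 at 2 h. They read 9.87, 9.54 and 9.95 at 4 h, 9.54, 9.35 and 9.69 at 10 h, and 9.93, 9.61 and 10.21 at 24 h. Its 10 h arrays were all below the baseline arrays, the nearest pair being 9.692 and 9.694. Sc5d fell by 0.61 ± 0.18 on the log2 scale at 10 h (limma adjusted p 0.0261). Its other 2 probe sets, both dimmer, gave -0.62 and -0.03 at 10 h.

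The other 9 genes of these steps did not pass the test at any time in the fit without the replicate number. When the number was in the model, Cyp51, Msmo1, Fdft1, Sqle, Lss and Dhcr7 were called lower at 4 h, against 4.83% of all genes. The same genes and Nsdhl were called lower at 10 h, against 8.41%, and Tm7sf2 and Ebp at neither time. Cyp51, the lanosterol demethylase, averaged 9.98 ± 0.48 log2 at baseline (SD, n = 3) and 9.35 ± 0.27 at 10 h, a difference of -0.63 ± 0.22 (limma adjusted p 0.052). Msmo1, which removes the 4-methyl groups, had all its 4 h and 10 h arrays below baseline, with -0.35 ± 0.11 at 4 h (adjusted p 0.0604) and -0.32 ± 0.11 at 10 h (adjusted p 0.0564). Fdft1, squalene synthase, was at -0.49 ± 0.20 at 4 h and -0.46 ± 0.20 at 10 h, where its arrays were also all below baseline (adjusted p 0.167 and 0.135). Sqle, the squalene epoxidase that is a second control point of the pathway, was at -0.37 ± 0.14 at 10 h (adjusted p 0.0906). Lss, which closes the sterol rings, was at -0.56 ± 0.30 at 4 h and -0.47 ± 0.30 at 10 h. Nsdhl, which works beside Msmo1 and Hsd17b7, was at -0.41 ± 0.18 at 10 h, and Dhcr7, the last reductase of the pathway, at -0.39 ± 0.19. Tm7sf2, a sterol reductase, was at -0.24 ± 0.17 at 10 h and 0.13 ± 0.17 at 24 h. Ebp, the sterol isomerase, stayed within -0.02 and 0.13 of its baseline level.

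**Figure D2:**
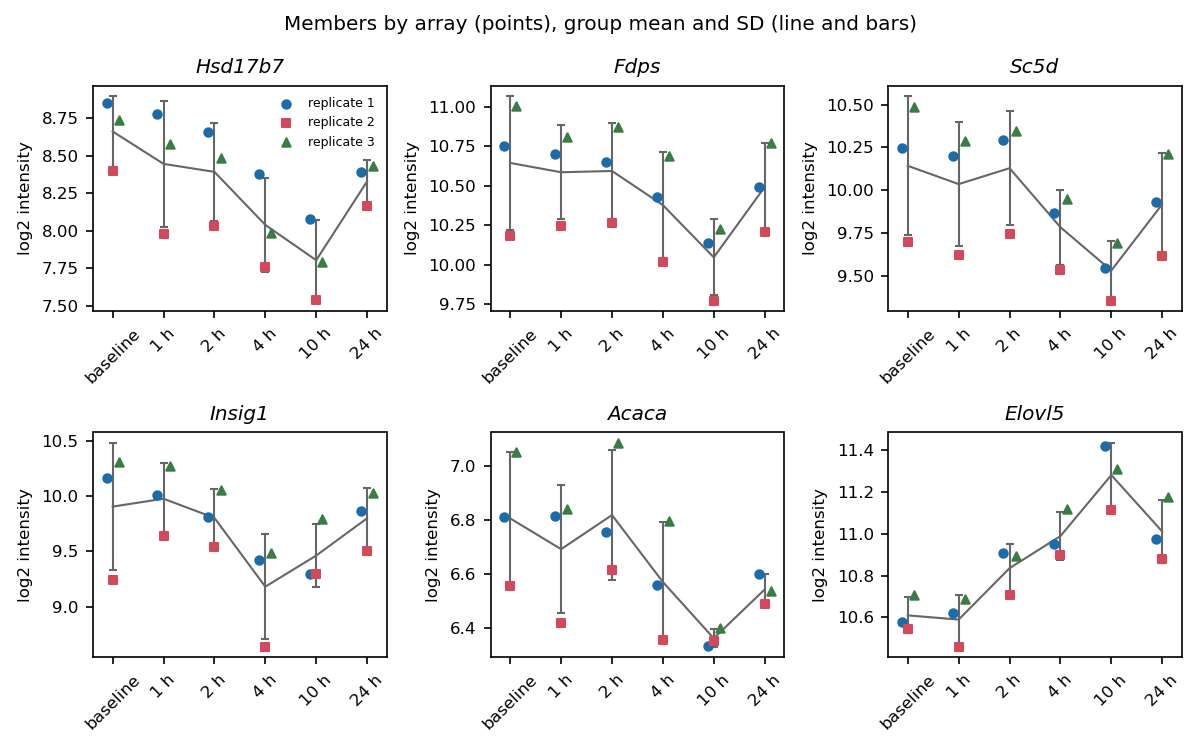
Log2 intensity (y axis) of 6 members at baseline and at 5 times of dexamethasone (x axis); symbols are the 3 arrays of a group by replicate number, and the line with bars is the group mean with its SD. Hsd17b7, Fdps, Sc5d and Acaca are lowest at 10 h, Insig1 at 4 h, and Elovl5 is highest at 10 h, at 11.42, 11.11 and 11.31.

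In the fit without the replicate number the regulators had no member past the test at any time. With the number in the model, Insig1 and Stard4 were called lower at 4 h and at 10 h, against 4.83% and 8.41% of all genes. Insig1, which holds the SREBP-Scap complex in the endoplasmic reticulum, read 10.17, 9.24 and 10.30 log2 at baseline. It read 10.01, 9.64 and 10.27 at 1 h, 9.815, 9.54 and 10.05 at 2 h, and 9.42, 8.63 and 9.49 at 4 h. Later arrays read 9.30, 9.30 and 9.795 at 10 h, and 9.86, 9.50 and 10.03 at 24 h. Replicate 2 was the lowest array at baseline and also at 4 h. The 4 h arrays overlapped the baseline arrays, and the change of -0.72 ± 0.23 had a limma adjusted p of 0.0532. Stard4, which carries cholesterol through the cytosol, was also lowest at 4 h, at -0.40 ± 0.14 (adjusted p 0.104), and stood at 0.09 ± 0.14 at 24 h. Srebf2 was at -0.17 ± 0.14 at 4 h and -0.20 ± 0.14 at 10 h. Insig2, the second Insig gene, stayed between -0.11 and -0.01, and Scap was at 0.18 ± 0.08 at 10 h (adjusted p 0.121), with all 3 arrays above baseline.

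In the fatty acid branch 1 member rose and 1 fell in the fit without the replicate number. Adding the number to the model gave 7 members lower at 10 h, against 8.41% of all genes. These were Acly, Acaca, Fasn, Scd1, Elovl6, Fads1 and Fads2. At 4 h it gave 3 lower, Fasn, Scd1 and Elovl6, against 4.83%. Elovl5, which lengthens polyunsaturated fatty acids, read 10.58, 10.54 and 10.71 log2 at baseline, 10.62, 10.46 and 10.69 at 1 h, and 10.91, 10.71 and 10.89 at 2 h. It read 10.95, 10.90 and 11.12 at 4 h, 11.42, 11.11 and 11.31 at 10 h, and 10.97, 10.88 and 11.17 at 24 h. From 4 h on, every treated array lay above every baseline array, as was so for 12.2% of all genes at 4 h, 14% at 10 h and 15.3% at 24 h. Elovl5 rose by 0.38 ± 0.08 log2 units at 4 h (limma adjusted p 0.00269), by 0.67 ± 0.08 at 10 h (1.59-fold, adjusted p 1.14e-06) and by 0.40 ± 0.08 at 24 h (adjusted p 0.00101). Its other probe set gave 0.57, 0.79 and 0.53 at these times. When each array was centred on its median the call at 4 h was lost, with 0.29 log2 and an adjusted p of 0.052; over all alternatives the adjusted p at 4 h ran from 5.81e-07 to 0.052.

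Acaca encodes acetyl-CoA carboxylase, which makes the malonyl-CoA that Fasn uses. Its arrays read 6.81, 6.55 and 7.05 log2 at baseline, 6.82, 6.42 and 6.84 at 1 h, and 6.75, 6.61 and 7.09 at 2 h. They read 6.56, 6.35 and 6.80 at 4 h, 6.33, 6.35 and 6.40 at 10 h, and 6.60, 6.49 and 6.54 at 24 h. The 10 h arrays lay below all baseline arrays and close together. Acaca fell by 0.45 ± 0.14 on the log2 scale at 10 h (limma adjusted p 0.0381). Its other probe set read 3.29 on average, below the 40th percentile of the arrays, and was at 0.01.

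The remaining 6 fatty acid genes did not pass the test at any time in the fit without the replicate number. Fasn, fatty acid synthase, averaged 8.37 ± 0.46 log2 at baseline (SD, n = 3), 7.85 ± 0.24 at 10 h and 8.32 ± 0.25 at 24 h. Its change at 10 h was -0.53 ± 0.19 (limma adjusted p 0.0721). Elovl6, which lengthens saturated chains made by Fasn, was lowest at 4 h, at -0.60 ± 0.24 (adjusted p 0.167). Scd1 was at -0.60 ± 0.41 at 10 h and Fads2, a desaturase of polyunsaturated fatty acids, at -0.49 ± 0.30, neither past the test (adjusted p 0.396 and 0.322). Fads2 was at -0.45 ± 0.30 at 24 h. Acly was at -0.21 ± 0.12 at 10 h and Fads1, the other desaturase of that pathway, at -0.14 ± 0.11.

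The counts that follow are of fits without the replicate number in the model. At 4 h against baseline 1 of 29 members fell, Hsd17b7, where 3.03% of all genes tested fell. Elovl5 was the 1 member that rose, where 4.5% rose. At 10 h, 4 fell, Fdps, Hsd17b7, Sc5d and Acaca, against 6.16% of all genes, and 1 rose against 8.29%. At 24 h 0 fell and 1 rose, against 5.34% and 7.38%. The limma test called 0 members at 1 h and 0 at 2 h, where 0.387% and 2.15% of all genes were called; at an unadjusted p under 0.05 it gave 0 and 1. Without the 6 arrays of replicate 2, 9 members fell at 4 h and 16 fell at 10 h, against 1.58% and 4.05% of all genes in that fit. Replicate 2 was left out after these members were seen to read low on it, so the higher counts are no separate support. The genes are named for completeness. Those that fell at 4 h in that fit were Hmgcs1, Fdft1, Sqle, Msmo1, Hsd17b7, Sc5d, Insig1, Stard4 and Elovl6. Those at 10 h were the same list without Hmgcs1, joined by Mvd, Idi1, Fdps, Lss, Cyp51, Nsdhl, Acaca and Fasn; Elovl5 rose at both times.

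These counts moved with single arrays. Members called at 4 h numbered 2 with all arrays, against 7.52% of all genes. They numbered 1 without baseline replicate 1, baseline replicate 3 or 4 h replicate 2, against 6.98%, 6.08% and 5.4%. Without baseline replicate 2 they numbered 8, against 5.94%, and without 4 h replicate 3 they numbered 5, against 6.27%. Leaving out 1 h replicate 2 gave 4, against 7.19%. Members called at 10 h numbered 5 with all arrays, against 14.4% of all genes. They numbered 2 without baseline replicate 1 or baseline replicate 3, against 12.9% and 11.1%. Without 10 h replicate 1 or 10 h replicate 2 they also numbered 2, against 12.5% and 12%. Without baseline replicate 2 they numbered 13, against 11.9%, and without 1 h replicate 2 they numbered 8, against 13.8%. Without baseline replicate 3 the limma adjusted p of Fdps, Sc5d and Acaca at 10 h was 0.218, 0.175 and 0.213, and that of Hsd17b7 at 4 h was 0.111. Centring each array on its median would lower all values by 0.119 at 10 h relative to baseline; it gave 12 members lower and 1 higher at 10 h, and 5 lower and 0 higher at 4 h. Of all genes it called 15.5% lower and 4.37% higher at 10 h and 6.66% lower at 4 h. The calls of Hsd17b7 at 10 h and of Elovl5 at 10 h and 24 h held without each single array; without all arrays of replicate 3 that of Hsd17b7 had an adjusted p of 0.0562.

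**Figure D3:**
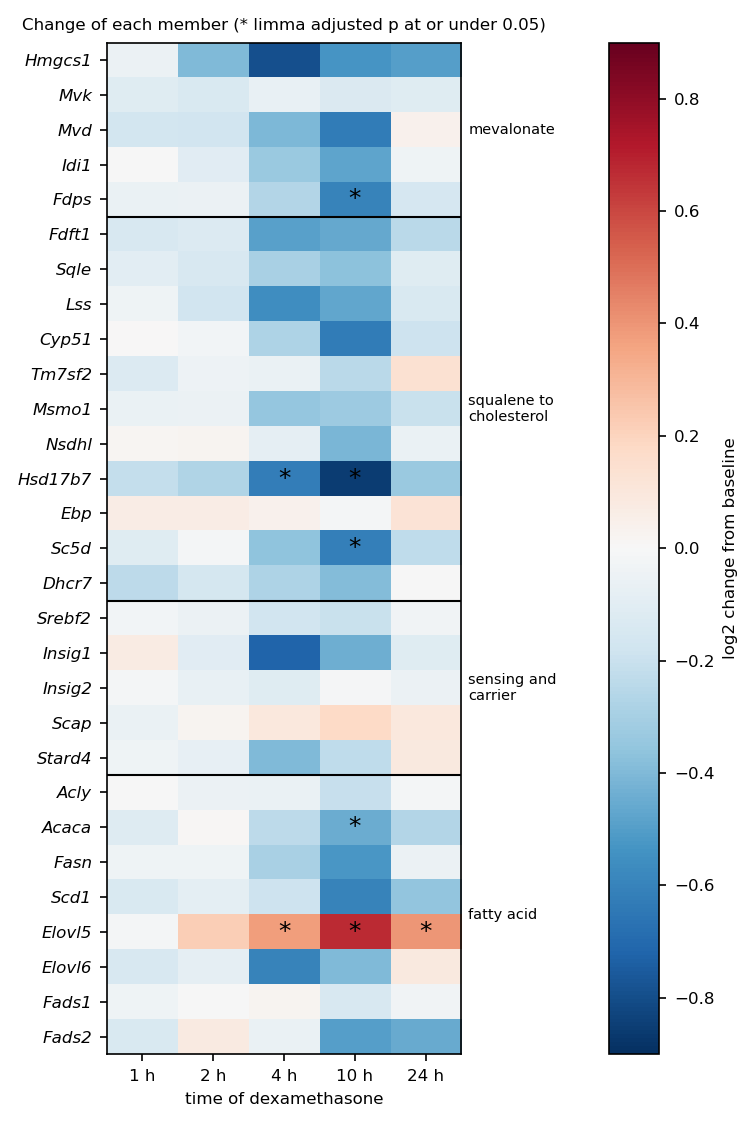
Log2 change from baseline (colour) of the 29 members (rows, by role) after 1, 2, 4, 10 and 24 h of dexamethasone (columns); stars mark a limma adjusted p at or under 0.05 over all genes. At 10 h 27 of 29 values are below 0, with Hsd17b7 at -0.86 the lowest, and Elovl5 carries the 3 stars for a higher level, at 4, 10 and 24 h.

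The 2 branches were then set side by side. Over the 16 sterol genes the median log2 change from baseline was -0.08 at 1 h, -0.11 at 2 h, -0.31 at 4 h, -0.47 at 10 h and -0.12 at 24 h. Over the 8 fatty acid genes it was -0.08, -0.02, -0.12, -0.42 and -0.04 at the same times. The median over all genes tested stayed between 0.00 and 0.01. With arrays left out, singly or by number, the sterol median ran from -0.52 to -0.17 at 4 h and from -0.65 to -0.30 at 10 h, and the fatty acid median from -0.34 to 0.08 and from -0.62 to -0.21. The fatty acid median at 4 h was above 0 without baseline replicate 3, at 0.04, and without 4 h replicate 2, at 0.08. The sterol change was the lower by 0.19 at 4 h and by 0.04 at 10 h. The first difference kept its direction with arrays left out, from -0.27 to -0.10, whereas the second ran from -0.13 to 0.05 and changed sign without baseline replicate 1 and without all arrays of replicate 2. On single arrays, with each gene set relative to its own mean, the sterol median minus the fatty acid median was 0.15, 0.14 and -0.07 at baseline. This gap was -0.01, -0.12 and -0.13 at 4 h, and -0.02, -0.18 and -0.14 at 10 h. These values are in the order of replicates 1, 2 and 3. The range of the gap at either time overlapped that at baseline. Within each replicate number the gap was lower at 4 h and at 10 h than at baseline. The difference between the branches was not tested. Values were below 0 in 15 of 16 sterol genes at 4 h and in 16 of 16 at 10 h. In the fatty acid branch 6 of 8 were below 0 at 4 h and 7 of 8 at 10 h, where 48.2% and 47.9% of all genes were. All members share the same baseline arrays, and these shares were not tested. At 10 h the 3 arrays lay wholly below baseline for 4 sterol genes and 1 fatty acid gene, against 11.6% of all genes.

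**Figure D4:**
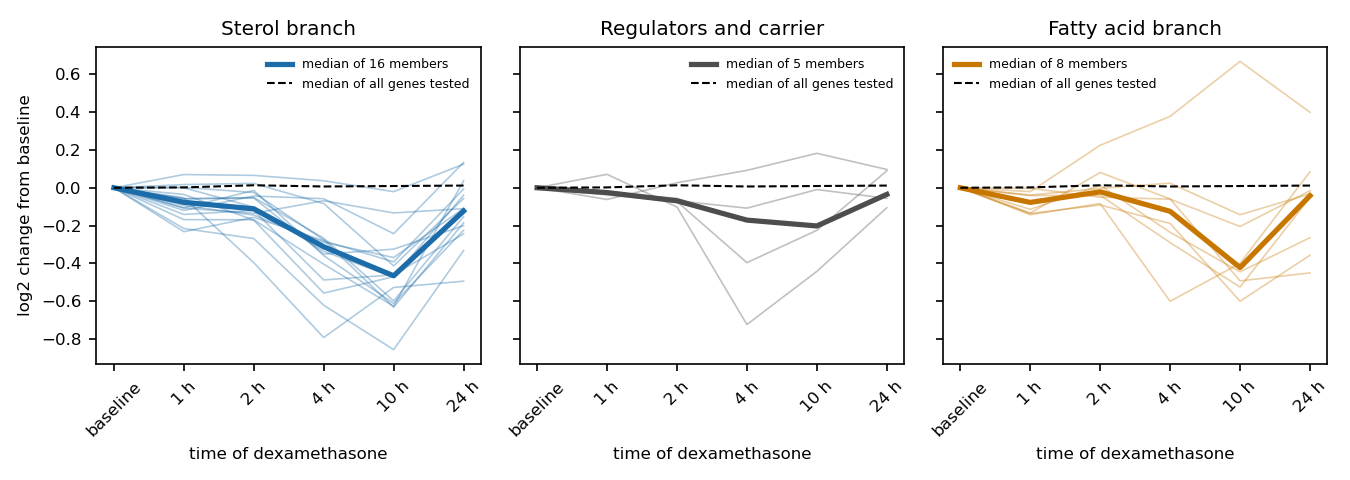
Log2 change from baseline (y axis) over the groups (x axis) for the sterol branch, the regulators and carrier, and the fatty acid branch; thin lines are members, the thick line is their median and the dashed line the median of all genes tested. The sterol median is lowest at 10 h at -0.47 and the fatty acid median at -0.42; the line that rises to 0.67 is Elovl5.

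The members differed in when they were lowest. Of 29 members 18 had their lowest group mean at 10 h and 8 at 4 h, against 18.8% and 15.5% of all genes. At baseline and at 24 h 0 members had it, where 19.5% of all genes had it in each. The 8 lowest at 4 h were Hmgcs1, Fdft1, Lss, Msmo1, Insig1, Insig2, Stard4 and Elovl6. Fdps, Cyp51, Mvd, Nsdhl, Fasn, Scd1 and Fads2 were among those lowest at 10 h. The limma test called 0 members from 1 h to 2 h, 0 from 2 h to 4 h and 1 from 4 h to 10 h, against 1.12%, 1.9% and 4.18% of all genes. The 1 member was Elovl5, with a further 0.29 ± 0.08 (adjusted p 0.0397). This call was lost without 4 h replicate 1, 4 h replicate 2, 10 h replicate 1 or 10 h replicate 3. Unadjusted p-values under 0.05 numbered 1, 4 and 1 in these steps.

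Between 10 h and 24 h all 16 sterol genes and 7 of 8 fatty acid genes had positive differences, with medians of 0.37 and 0.19, where 50.2% of all genes had negative ones. The largest were those of Mvd at 0.66 ± 0.23, Hsd17b7 at 0.52 ± 0.18, Elovl6 at 0.48 ± 0.24 and Fasn at 0.47 ± 0.19. The limma test called 0 members in this step, against 2.16% of all genes, and 10 had an unadjusted p under 0.05, 9 of them higher at 24 h. Leaving out the replicate 2 arrays, 4 members rose, against 0.576% of all genes. Without 10 h replicate 2 or 24 h replicate 3, the 1 member called was a fatty acid gene lower at 24 h. In these fits 1.11% and 0.887% of all genes were lower. Elovl5 differed by -0.27 ± 0.08 (adjusted p 0.0883). By the F test over the 6 groups 2 members were called, Hsd17b7 (adjusted p 0.0113) and Elovl5 (adjusted p 1.67e-06), against 17.4% of all genes. Without replicate 2 it called 13, against 10.7% of all genes. Without baseline replicate 2 it called 9, and without 10 h replicate 2 it called 1, against 16.8% of all genes in each.

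Promoters of 23 of the 29 members were found in the RefSeq table of build GRCm38.p6, each from 250 bases before to 50 after the transcription start. They were searched on both strands for 5 motifs by exact letters. CCAAT, the box bound by NF-Y, which works together with SREBP, was present in 13 of 13 sterol promoters, 3 of 6 of the fatty acid branch and 3 of 4 regulators, against 42.3% of 10621 tested genes. CACGTG, an E-box that SREBP proteins can bind, was present in 6 of 23, those of Dhcr7, Hsd17b7, Sc5d, Insig1, Scap and Elovl5, against 11.1%. TCACNCCAC, the core of the classic sterol regulatory element, was found in 1, Hmgcs1, against 1.5%. The glucocorticoid receptor motif TGTTCT, 1 arm of its palindrome, was in 7 of 23, against 15.7%, and the full palindrome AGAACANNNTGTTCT, which contains it, in 0 of 23, against 0.0188%. A match of letters is not a bound site, and the absence of one says nothing of sites elsewhere.

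Promoters of 4 members are printed, for the 2 sterol genes that fell on the array and had an entry, for the gene with the sterol regulatory element, and for the gene that rose. Capitals mark every match to the 5 motifs on either strand, so that ATTGG is CCAAT read from the other strand and AGAACA is TGTTCT. Their positions are chr1:169969156-169969455 on the minus strand for Hsd17b7, chr9:42264251-42264550 on the minus strand for Sc5d, chr13:119690101-119690400 on the plus strand for Hmgcs1 and chr9:77917115-77917414 on the plus strand for Elovl5.
Hsd17b7: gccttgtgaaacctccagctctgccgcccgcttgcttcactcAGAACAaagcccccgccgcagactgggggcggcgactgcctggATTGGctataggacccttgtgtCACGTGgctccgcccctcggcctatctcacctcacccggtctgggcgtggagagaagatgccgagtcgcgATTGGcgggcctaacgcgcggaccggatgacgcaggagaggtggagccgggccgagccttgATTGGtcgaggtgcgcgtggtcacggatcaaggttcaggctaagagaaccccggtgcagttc
Sc5d: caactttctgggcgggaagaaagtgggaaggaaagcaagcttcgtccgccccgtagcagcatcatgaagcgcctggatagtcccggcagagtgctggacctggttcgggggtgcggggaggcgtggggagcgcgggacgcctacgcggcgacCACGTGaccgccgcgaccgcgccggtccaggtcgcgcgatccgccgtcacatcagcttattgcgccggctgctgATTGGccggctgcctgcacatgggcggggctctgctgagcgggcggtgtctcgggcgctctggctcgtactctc
Hmgcs1: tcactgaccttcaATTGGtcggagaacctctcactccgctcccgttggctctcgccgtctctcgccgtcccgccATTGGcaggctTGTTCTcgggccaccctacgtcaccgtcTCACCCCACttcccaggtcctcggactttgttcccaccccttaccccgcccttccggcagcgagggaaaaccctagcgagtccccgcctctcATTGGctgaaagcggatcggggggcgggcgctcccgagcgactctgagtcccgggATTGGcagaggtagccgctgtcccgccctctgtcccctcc
Elovl5: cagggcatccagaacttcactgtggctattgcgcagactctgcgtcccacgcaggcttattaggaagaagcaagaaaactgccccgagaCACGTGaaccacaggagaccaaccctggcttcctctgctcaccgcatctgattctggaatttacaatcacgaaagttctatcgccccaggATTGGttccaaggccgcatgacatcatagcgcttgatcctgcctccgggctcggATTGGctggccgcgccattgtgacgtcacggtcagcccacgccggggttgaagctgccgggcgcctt
Hsd17b7 holds an E-box 143 bases before the start, 3 CCAAT boxes and 1 AGAACA, and Sc5d an E-box 98 bases before it and 1 CCAAT box. Hmgcs1 holds the element TCACCCCAC 137 bases before the start, with 4 CCAAT boxes and 1 TGTTCT. Elovl5, the member that rose, also holds an E-box, 161 bases before the start, and 2 CCAAT boxes, and no TGTTCT lies in its window on either strand.

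Other genes of these pathways were read from lists of genes that are no members. Of 8 tested sterol pathway genes 1 fell and 0 rose at each time, against 3.03%, 6.16% and 5.34% of all genes that fell at 4, 10 and 24 h. The gene was Mylip, the ligase that degrades lipoprotein receptors and a target of the liver X receptors. It was at -0.59 ± 0.09 already at 1 h (limma adjusted p 0.000278) and at -0.54 ± 0.09 at 10 h. Of 17 tested fatty acid synthesis genes 4 fell and 1 rose at 10 h, against 6.16% and 8.29% of all genes. Mid1ip1, which helps acetyl-CoA carboxylase to polymerise, fell by 1.00 ± 0.09 on the log2 scale at 4 h (adjusted p 2.49e-08) and was at -0.68 ± 0.09 at 10 h. Me1, which supplies NADPH, fell by 0.41 ± 0.12 at 10 h and fell by 0.65 ± 0.12 at 24 h. Hacd2, a dehydratase of the elongation cycle in which Elovl5 works, rose by 0.45 ± 0.07 at 10 h. Of 8 tested liver X receptor genes 3 rose and 1 fell at 24 h, against 7.38% and 5.34% of all genes. Apoe, the macrophage apolipoprotein, rose by 1.03 ± 0.21, Rxra, the partner receptor, by 0.69 ± 0.17, and the sterol exporter Abcg1 fell by 0.26 ± 0.07.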

How the data were processed

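The deposited table holds intensity values on a linear scale, 1 per probe set and array, to which the submitters' processing notes assign RMA (affy); versions, build and annotation are not given in the sources used here. RMA equalises the arrays' distributions, which removes a change shared by most genes. Values ran from 5.37 to 15224, and log2 was taken. Of 45141 probe sets, 28898 had 1 gene symbol, 551 several and the rest none. An evenly stepped run of 211 values in baseline replicate 1 was left out on all arrays; it held 0 members. Genes were kept if 3 arrays reached their 40th percentile.

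Limma 3.58.1 in R 4.3.3 fitted 1 mean per group over 18 arrays, with an intensity trend and Benjamini-Hochberg adjustment over 13190 genes, two-sided, at a threshold of 0.05. Errors of changes are limma standard errors, and p-values measure the spread between these arrays, which limits the precision. Without the replicate number in the model that spread includes any offset shared by the arrays of a number. It is therefore not the spread of the change within a number. The method was tested on simulated data with independent noise on each array. These held no offset of a replicate number, so they do not cover the pattern of replicate 2 seen in the members. Members and lists were chosen with earlier results of these data known. All 33 members are named; array values are given for called members and, where a role group had none, its largest change. Alternatives covered probe choice, filter, trend, arrays fitted, the run, centring, a pseudocount of 16, the replicate number as a block, and arrays left out.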

Additional observations from a re-analysis of the deposited data

Results flagged for a closer look

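Elovl5 was the 1 member whose change from baseline differed between successive times by limma's own test of the difference, rising a further 0.291 log2 units from 4 h to 10 h (adjusted p 0.0397). Groups of 3 arrays are too small for a test of outlying arrays.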

How the results depend on the processing

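With the replicate number as a block in the model, 1, 18, 23 and 9 members were called at 2, 4, 10 and 24 h, and 0 at 1 h, against 0, 2, 5, 1 and 0 without it. Of these, 17, 22 and 8 were lower at 4, 10 and 24 h, where 4.83%, 8.41% and 7.42% of all genes were lower. The 23 at 10 h were all members except Mvk, Tm7sf2, Ebp, Srebf2, Insig2 and Scap, so Scd1 and Fads2 were among them. The block gave 1, 10, 9 and 17 members in the 4 successive steps, against 1.66%, 3.79%, 7.16% and 4.15% of all genes, and 16 of the last 17 were higher at 24 h than at 10 h. By the F test it gave 23, against 24.6%. The design text speaks of biological replicates of a time course, which may mean that a number is 1 mouse, but no label says so. Over all genes tested 35 of 45 same-number pairs of arrays from different groups correlated above 0.1 in their deviations from the group means (0.0236 to 0.29). As a hint from the data, 18 of 18 arrays correlated best with their own number. The 10 h array lay below the baseline array of its number in all 3 numbers for 22 members, against 19.9% of all genes.

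No called member changed direction under an alternative. Keeping only calls of the main fit with an absolute log2 change of at least 0.5 left 1 member at 4 h. It left 0 at 24 h and 0 from 4 h to 10 h. The share of all genes past this cut was not taken, so these counts have no background beside them. The mean of all probe sets gave 1 at 4 h, 2 at 10 h, 0 from 4 h to 10 h and 1 by the F test. Of all genes it called 6.74%, 12.9%, 3.27% and 15.9%. The fit without a trend gave the same counts, against 6.08%, 12.3%, 2.43% and 14% of all genes. The probe set of largest variance gave 0 from 4 h to 10 h, where 2.82% of all genes were called. It gave a sterol minus fatty acid difference of -0.18 at 2 h, against -0.09. Fitting only the groups compared gave 10 at 10 h, 0 from 4 h to 10 h and 1 from 10 h to 24 h. The shares of all genes were 9.53%, 2.61% and 1.33%. Keeping the stepped values gave 1 at 4 h and 0 from 4 h to 10 h, against 7.27% and 3.84% of all genes. Centred arrays gave 5 at 4 h, 13 at 10 h, 0 from 4 h to 10 h and 6 by the F test. Among all genes they gave 9.42%, 19.9%, 3.13% and 20.1%. The causes were not tested.

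With arrays left out, singly or by number, members called ran from 0 to 0 at 1 h and 2 h, 1 to 10 at 4 h, 1 to 17 at 10 h, 1 to 2 at 24 h, 0 to 0, 0 to 1, 0 to 1 and 0 to 4 in the steps, and 1 to 13 by the F test. The 10 at 4 h and the 17 at 10 h came without replicate 2, where 4.4% and 9.79% of all genes were called. With arrays left out, 7 of 10 branch medians changed sign, all but those of both branches at 10 h and of the sterol branch at 4 h, and so did the difference between the branches at 1 h (-0.0882 to 0.0220) and 10 h (-0.132 to 0.0480). At 4 h that difference ran from -0.27 to -0.10.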
